A study of Bos taurus with 4 samples.

Results

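Claudins were described here through 10 genes of the family, CLDN1, CLDN2, CLDN3, CLDN4, CLDN5, CLDN7, CLDN8, CLDN15, CLDN18 and CLDN23. The rows with these symbols were taken from the count files of 4 bovine libraries, and each symbol had 1 row, so the members were 10 of the 29792 rows (22200 rows had a read in any library). There was 1 library for each of 4 conditions: small intestine, muscle, and organoids grown from intestine at passage 5 (P5) or passage 10 (P10). All samples were labelled as Hanwoo, a Korean breed of cattle, and the cattle of the study were over 24 months of age. The organoids were grown from jejunal crypts of healthy animals of this age, in Matrigel, a basement membrane gel, under IntestiCult, a commercial organoid medium. The labels do not say which muscle was sampled, or whether tissues and organoids came from the same animal. Since each condition had 1 library, no difference has a replicate check, no test between conditions could be made and no p-value is given. Differences by passage and differences between single cultures cannot be told apart.

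Claudins are membrane proteins that span the membrane several times and join neighbouring epithelial or endothelial cells at the tight junction. Their outer loops meet between the cells, and the set of claudins in a junction decides how tightly it closes and which ions pass. CLDN2 and CLDN15 form channels for small cations, and CLDN2 also lets water through, whereas members such as CLDN1, CLDN3, CLDN5 and CLDN8 close the junction. In the gut, the leaky junctions of the small intestine carry sodium back to the lumen, where it drives the uptake of nutrients.

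The libraries held 12917720 to 17776273 reads from the 3′ ends of polyadenylated RNA (the QuantSeq method). Levels are given as reads and as CPM, the reads of a gene scaled to a library of 1000000 reads. A read comes from the end of a transcript, so CPM was not divided by gene length. Intervals are exact 95% intervals of the read counts (Poisson for a level, Clopper-Pearson for a share, conditional binomial for a ratio) and hold no error besides that of counting, and copies made by PCR are counted as if they were separate molecules. Where a library had no reads, 3 reads were entered for calls and medians. That is 0.169 CPM in intestine and P10 organoids, 0.221 CPM in P5 organoids and 0.232 CPM in muscle. A fold given as at least a value against such a library is the limit of its 95% interval. The 18S ribosomal RNA row RN18S1 took 23.6% of the muscle reads and 0.264% to 4.81% of the others. Of the genes of other cell classes, 10 skeletal muscle genes summed to 53238 CPM in muscle and 2.20 to 3.66 CPM elsewhere. Besides epithelial RNA, the intestine library held 2422 CPM on 8 smooth muscle genes and 356 CPM on 10 immune genes. The same genes summed to 26.4 and 5.51 CPM in P5 organoids and 54.0 and 5.58 CPM in P10 organoids. In such bulk RNA, fewer cells of a type and less RNA per cell cannot be told apart.

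Reads on the 10 claudins numbered 9569 for intestine, 21378 for P5 organoids, 25626 for P10 organoids and 104 for muscle. As a share of the library this was 0.0538% in intestine (0.0528 to 0.0549), 0.157% in P5 organoids (0.155 to 0.159), 0.145% in P10 organoids (0.143 to 0.146) and 0.000805% in muscle (0.000658 to 0.000976). Claudin RNA was thus a larger part of both organoid libraries than of intestine, 2.92 times larger at P5 (2.85 to 2.99) and 2.68 times at P10 (2.62 to 2.75). The epithelial marker list moved with it: its 10 genes (EPCAM, CDH1, KRT8, KRT18, KRT19, KRT20, VIL1, CDX2, ELF3 and CDH17) summed to 3397 CPM in intestine, 12966 in P5 organoids and 10340 in P10 organoids. That sum was 3.82 times the intestine value at P5 and 3.04 times at P10, more than the claudins gained at either passage. Single markers ranged from 1.81 times (KRT20) to 65.0 times (CDX2, 4 reads in intestine) at P5, with a median of 5.66. At P10 they ranged from 0.527 times (KRT20) to 40.5 times, with a median of 4.80 and 8 of the 10 above intestine. The denominator itself thus rests on genes that differed among themselves. Keratins made up most of the sum: KRT8 and KRT19 had 4168 and 3855 CPM at P5 and 4082 and 2603 CPM at P10. In intestine the largest term was KRT20, at 1299 CPM.

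**Figure D1:**
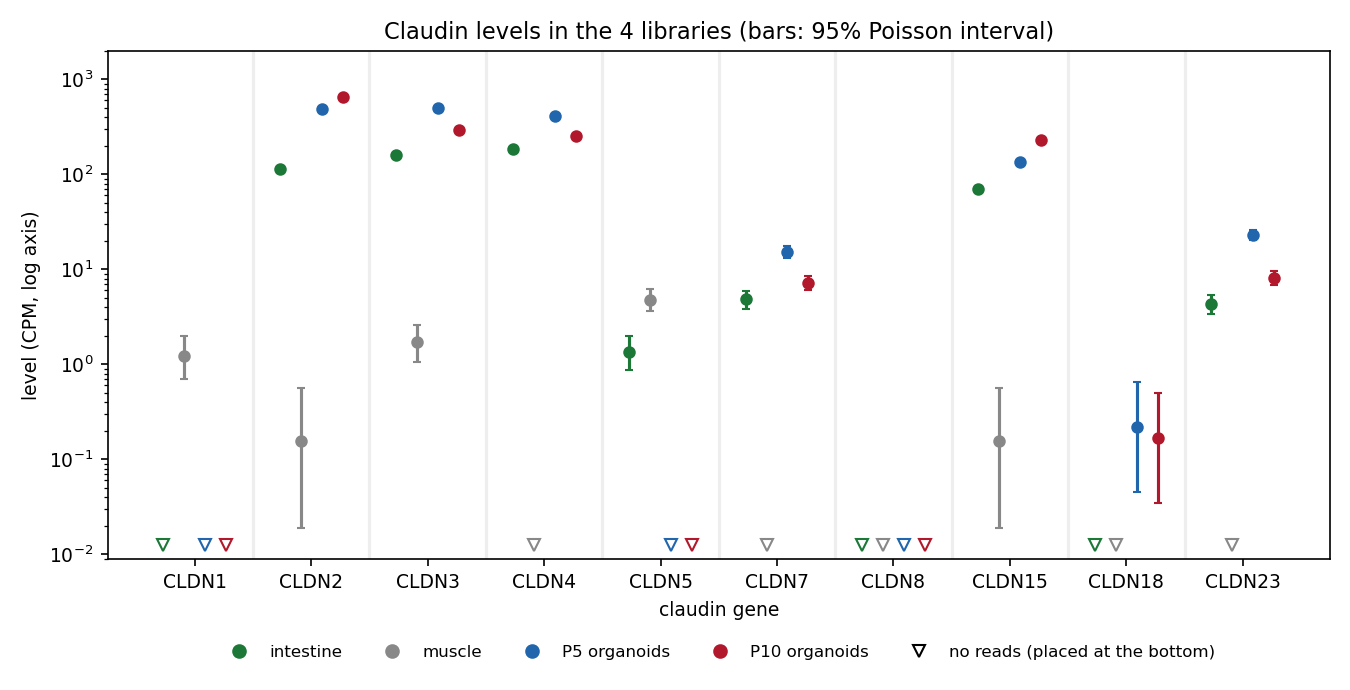
Level of each claudin in the 4 libraries, in CPM on a log axis, with exact 95% Poisson intervals; open triangles at the bottom mark libraries without a read. CLDN2, CLDN3, CLDN4 and CLDN15 lay between 70.7 and 655 CPM in intestine and organoids, CLDN7 and CLDN23 between 4.33 and 23.0 CPM, and CLDN1 and CLDN5 had no reads in the organoids.

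CLDN2, the pore-forming claudin of leaky epithelia and intestinal crypts, had 2009 reads in intestine (113 CPM, 108 to 118), 6663 in P5 organoids (490 CPM, 478 to 502), 11620 in P10 organoids (655 CPM, 644 to 667) and 2 in muscle. The order was P10 organoids, P5 organoids, intestine and muscle, and no neighbouring intervals overlapped. In P10 organoids it ranked 187 of the 17563 rows with a read. Per library total, CLDN2 was 4.34 times the intestine level at P5 (4.12 to 4.56) and 5.80 times at P10 (5.53 to 6.08). Per epithelial marker read it was 1.14 times at P5 (1.08 to 1.19) and 1.91 times at P10 (1.82 to 2.0). The ratio to muscle rested on 2 muscle reads and was 730 for intestine (202 to 6032).

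CLDN15, the second cation pore of the small intestine, had 1256 reads in intestine (70.7 CPM, 66.8 to 74.7), 1849 in P5 organoids (136 CPM, 130 to 142), 4080 in P10 organoids (230.1 CPM, 223 to 237) and 2 in muscle. The order was the same as for CLDN2, again without overlap. CLDN15 was 1.92 times the intestine level in P5 organoids (1.79 to 2.07) and 3.26 times in P10 organoids (3.06 to 3.47) per library total, but per epithelial marker read it was 0.504 times at P5 (0.469 to 0.542) and 1.07 times at P10 (1.0 to 1.14). For each read of CLDN2 there were 0.625 reads of CLDN15 in intestine (0.582 to 0.671), 0.278 in P5 organoids (0.263 to 0.292) and 0.351 in P10 organoids (0.339 to 0.364).

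CLDN3, a sealing claudin of gut epithelium, had 2846 reads in intestine (160 CPM, 154 to 166), 6769 in P5 organoids (498 CPM, 486 to 510), 5147 in P10 organoids (290.3 CPM, 282 to 298) and 22 in muscle (1.70 CPM, 1.07 to 2.58). CLDN4, which restricts the passage of sodium, had 3271 reads in intestine (184 CPM, 178 to 190.4), 5573 in P5 organoids (410 CPM, 399 to 421), 4505 in P10 organoids (254 CPM, 247 to 262) and none in muscle. For both genes P5 organoids were highest and P10 organoids second, and the intervals did not overlap. Per library total, CLDN3 was 3.11 times the intestine level at P5 (2.98 to 3.25) and 1.81 times at P10 (1.73 to 1.90), and CLDN4 2.23 times (2.13 to 2.33) and 1.38 times (1.32 to 1.44). Per epithelial marker read the direction turned for both. CLDN3 was 0.815 times at P5 and 0.596 times at P10, and CLDN4 0.584 and 0.454 times. Against single markers the outcome depended on the marker. At P5 KRT20 and CDH17 had lower ratios to intestine (1.81 and 1.94) than both claudins. VIL1 (2.08, 1.98 to 2.18) was below CLDN3 and overlapped CLDN4 in its interval. EPCAM (3.23, 3.13 to 3.33) was above CLDN4 and overlapped CLDN3. The rest of the list had higher ratios than both. At P10 KRT20, VIL1 and CDH17 were again lower (0.527, 1.20 and 0.605). EPCAM, at 1.79, was then close to CLDN3 and above CLDN4, and the rest were higher than both. CLDN4 of P5 organoids was also under 2-fold with TMM and DESeq2 factors (1.98 with each) and with quantile normalisation (1.89). NCBI's RefSeq gene table (assembly ARS-UCD2.0) holds all 10 symbols and places these 2 genes next to each other. The counts include reads with several alignments, so reads shared between related claudins cannot be told apart.

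CLDN7, an epithelial claudin that binds the adhesion protein EPCAM, had 86 reads in intestine (4.84 CPM, 3.87 to 5.97), 208 in P5 organoids (15.3 CPM, 13.3 to 17.5), 128 in P10 organoids (7.22 CPM, 6.02 to 8.58) and none in muscle. CLDN23, found in the surface epithelium of the gut, had 77 reads in intestine (4.33 CPM, 3.42 to 5.41), 313 in P5 organoids (23.0 CPM, 20.5 to 25.7), 143 in P10 organoids (8.07 CPM, 6.80 to 9.50) and none in muscle. Both had the order of CLDN3 and CLDN4. Against intestine, per library total, CLDN7 was 3.16 times higher at P5 (2.45 to 4.11) and CLDN23 5.31 times (4.13 to 6.91). Per epithelial marker read the P5 ratio of CLDN7 was 0.828 (0.641 to 1.08) and that of CLDN23 1.39 (1.08 to 1.81). Against the tissue, the P10 ratios were 1.49 for CLDN7 (1.13 to 1.98) and 1.86 for CLDN23 (1.40 to 2.49), and per epithelial marker read they turned to 0.490 and 0.612. With TMM the interval for CLDN7 at P10 held 1 (0.951 to 1.68).

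Of the 7 members with 10 reads or more in P5 organoids or intestine, 5 were past 2-fold upwards at P5 by CPM (CLDN2, CLDN3, CLDN4, CLDN7 and CLDN23) and 1 downwards (CLDN5). Over all 17783 rows with that many reads, 21.5% were called higher and 24.8% lower. At P10, 2 members exceeded intestine by 2-fold or more (CLDN2 and CLDN15) and 1 lay as far below it (CLDN5), against 26.8% and 28.4% of all rows. The median log2 ratio of the members was 1.64 at P5 and 0.86 at P10, with CLDN5 entered at 3 organoid reads, and that of all rows 0.09 and 0.12. Both comparisons share the intestine library. Per epithelial marker read no member was 2-fold higher at either passage, where 3.50% of all rows were at P5 and 6.39% at P10. With this denominator 1 member was 2-fold lower at P5 (CLDN5), against 76.9% of all rows, and 3 at P10 (CLDN4, CLDN5 and CLDN7), against 63.4%. The median log2 ratio of the members was then -0.30 at P5 and -0.75 at P10, and that of all rows -1.84 and -1.49.

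**Figure D2:**
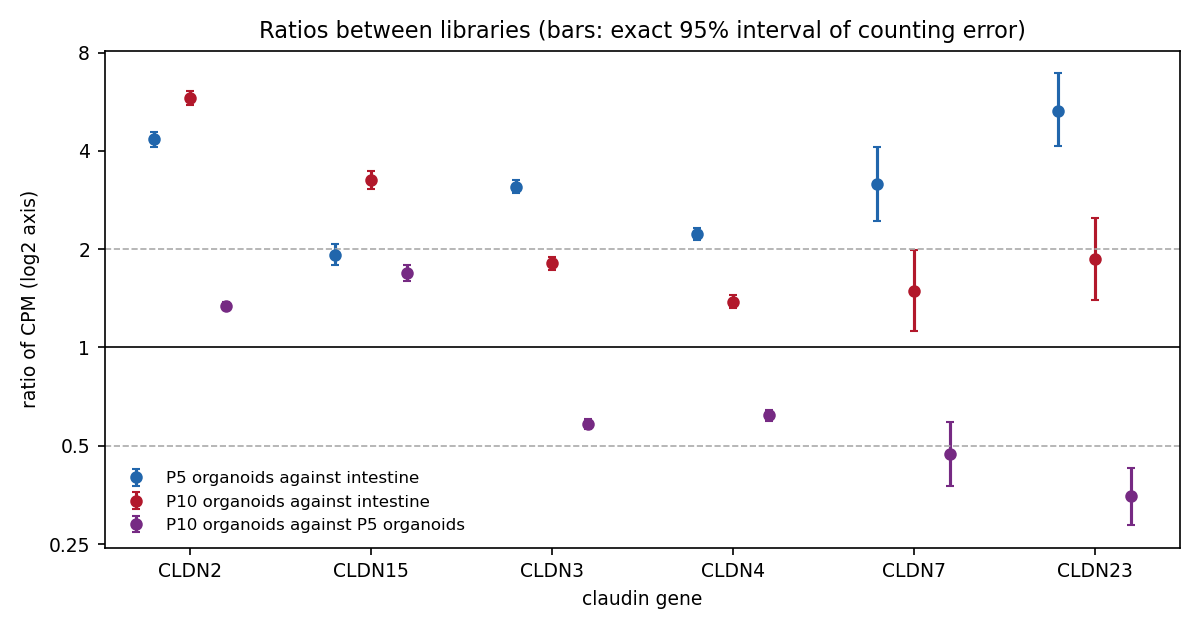
Ratios of CPM between intestine and organoid libraries for the 6 claudins with reads in all 3, on a log2 axis, with exact 95% intervals of counting error; dashed lines mark 2-fold. All 12 ratios to intestine lay above 1 per library total, and 8 of them lay below 1 per epithelial marker read; between the passages CLDN2 and CLDN15 were above 1 and the other 4 below 1 with either denominator.

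The same 6 claudins had more than 3 reads at both passages, at different levels. From P5 to P10, CLDN2 was 1.34 times higher (1.30 to 1.38) and CLDN15 1.69 times higher (1.60 to 1.79), whereas CLDN3 was at 0.583 times its P5 level (0.562 to 0.605), CLDN4 at 0.620 (0.596 to 0.645), CLDN7 at 0.472 (0.376 to 0.591) and CLDN23 at 0.350 (0.285 to 0.428). Per epithelial marker read all 6 kept these directions, at 1.68 for CLDN2, 2.12 for CLDN15, 0.731 for CLDN3, 0.777 for CLDN4, 0.592 for CLDN7 and 0.439 for CLDN23. CLDN15 was then past 2-fold upwards and CLDN23 downwards, as were 27.8% and 14.2% of all rows. The single markers were split, however. CDH17 (0.311), KRT20 (0.292) and CDX2 (0.0925) had lower ratios of P10 to P5 than CLDN3 and CLDN4. EPCAM (0.555, 0.541 to 0.569) was lower than CLDN4, but its interval overlapped that of CLDN3. The interval of VIL1 (0.578, 0.552 to 0.604) overlapped those of CLDN3 and CLDN4. CDH17, KRT20 and CDX2 were lower than CLDN7 as well, and CDX2 also than CLDN23. The intervals of CDH17 (0.297 to 0.326) and KRT20 (0.286 to 0.298) overlapped that of CLDN23. CDH1 (0.787), KRT8 (0.979), KRT18 (3.28), KRT19 (0.675) and ELF3 (1.07) had higher ratios than CLDN3, CLDN4, CLDN7 and CLDN23. By CPM none of the 6 members with at least 10 reads was 2-fold higher at P10 and 2 were 2-fold lower (CLDN7 and CLDN23), where 18.3% of all 16131 rows were called higher and 18% lower.

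The balance of the pore-forming and the sealing members could be read within each library, where no scaling enters. For each read of CLDN3 and CLDN4 there were 0.534 reads of CLDN2 and CLDN15 in intestine (0.511 to 0.557), 0.690 in P5 organoids (0.671 to 0.709) and 1.63 in P10 organoids (1.59 to 1.67). From intestine to P5 organoids only CLDN2 of the pore-forming pair gained on CLDN4. CLDN15 had 0.384 reads for each read of CLDN4 in intestine (0.360 to 0.410), 0.332 at P5 (0.315 to 0.350) and 0.906 at P10 (0.868 to 0.945), and its share of the claudin reads was 13.1%, 8.65% and 15.9%. Between the passages the pore-forming pair was 1.41 times higher at P10 (1.38 to 1.45) and the sealing pair at 0.600 times its P5 level (0.584 to 0.616) by CPM. CLDN2 alone made up 21.0% of the claudin reads in intestine (20.2 to 21.8), 31.2% in P5 organoids (30.5 to 31.8) and 45.3% in P10 organoids (44.7 to 46.0). CLDN4 went the other way, with 34.2% in intestine, 26.1% in P5 organoids and 17.6% at P10. The most abundant member was CLDN4 in intestine and CLDN2 in P10 organoids, while in P5 organoids the ratio of CLDN2 to CLDN3 was 0.984 (0.951 to 1.02), so they could not be ordered.

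**Figure D3:**
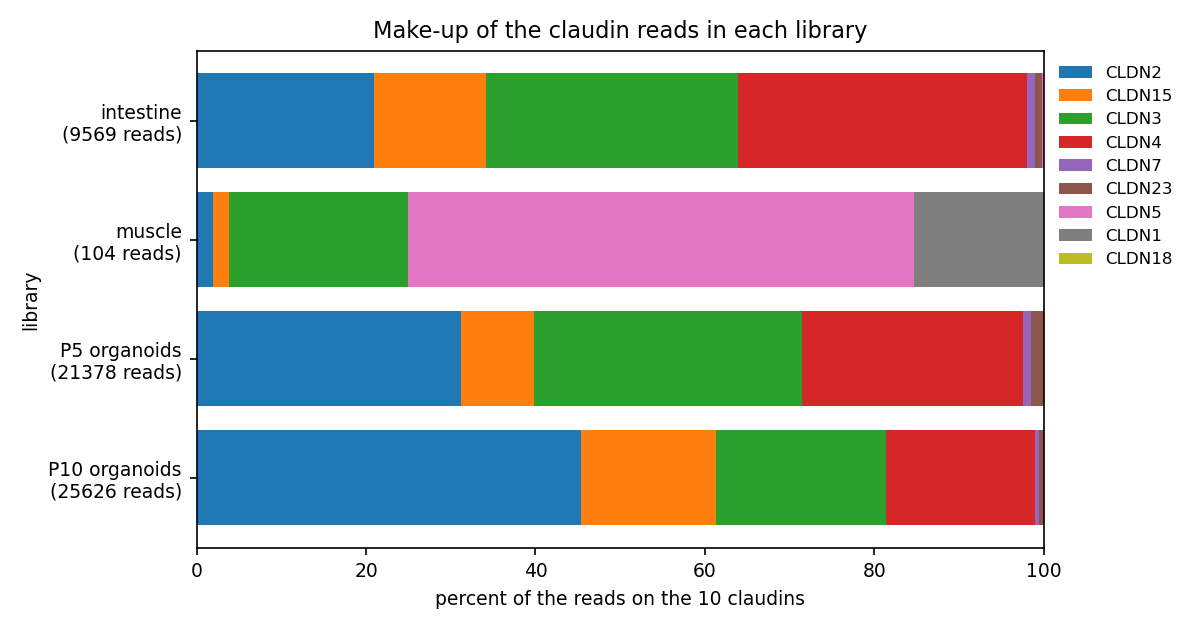
Share of each claudin in the reads on the 10 members, in percent, 1 bar for each library with its number of claudin reads. CLDN2 took 21.0% of these reads in intestine, 31.2% in P5 organoids and 45.3% at P10, and CLDN5 took 59.6% of the 104 reads in muscle.

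Markers of 2 epithelial states differed between the passages beside these claudins. The summed level of 14 enterocyte genes was 34349 CPM in intestine, 5218 at P5 and 314 at P10, and 12 of the 14 had more than 3 reads at P5 and 9 at P10. FABP1, a fatty acid binding protein, made up 19239 CPM of the intestine sum. Of the 12 genes that had more than 3 reads at P5, 4 had ratios to intestine above 1 there. ANPEP, a brush border peptidase, was at 294 times, SI, the sucrase-isomaltase, at 3.55 times and SLC15A1, the peptide transporter, at 1.89 times. The interval of DPP4 held 1 (1.04, 0.970 to 1.11). At P10, 1 of 9 genes was above intestine, ANPEP at 1.95 times (1.56 to 2.44). All 9 genes compared between the passages were lower at P10. ALPI had no reads at either passage, and APOA1 and APOA4 had none at P10. The 10 crypt genes, among them LGR5, OLFM4 and SOX9, summed to 289.9 CPM in intestine, 1012 at P5 and 3514 at P10, and all 10 had more than 3 reads in each of these libraries. OLFM4 alone made up 1933 CPM of the P10 sum, and LGR5 had 34 reads at P5 and 9 at P10. Their part in the claudin differences was not tested.

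CLDN5, the sealing claudin of blood vessel endothelium, had 24 reads in intestine (1.35 CPM, 0.865 to 2.01), 62 in muscle (4.80 CPM, 3.68 to 6.15) and none in either organoid library. It was the only member with a higher level in muscle than in intestine besides CLDN1, by 3.55 times (2.19 to 5.96), while 11.5% of all rows were called lower in intestine than in muscle. The ratio of intestine to muscle, 0.281 by CPM, was 0.139 with TMM, 0.125 with upper-quartile, 0.130 with DESeq2 and 0.0747 with quantile scaling. P5 organoids were at least 6.12-fold lower than intestine and at least 21.8-fold lower than muscle, and P10 organoids at least 7.98-fold and 28.4-fold lower. With quantile normalisation the ratio of P10 organoids to intestine, with 3 reads entered for the organoids, was 0.558 and no longer 2-fold. The 12 endothelial genes summed to 84.2 CPM in intestine, 75.2 in muscle, 5.88 at P5 and 4.51 at P10. In the organoids KDR, TIE1, EGFL7, ROBO4 and ESAM had no reads at either passage. Of the 12, 5 had more than 3 reads at P5 and 6 at P10, among them TEK (29 and 20 reads) and VWF (13 and 34 reads). All 12 were over 3 reads in intestine and muscle, and per endothelial marker read CLDN5 in intestine was 0.251 times the muscle value (0.150 to 0.408). The 12 genes differed among themselves. Of them 7 were higher in intestine than in muscle, and the ratios ran from 0.389 (ESAM) to 3.62 (TEK).

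CLDN1, a sealing claudin best known from skin, had 16 reads in muscle (1.24 CPM, 0.708 to 2.01) and none in intestine, P5 organoids or P10 organoids. Its level in muscle was at least 7.34-fold above intestine, 5.61-fold above P5 organoids and 7.32-fold above P10 organoids. CLDN8, a sealing claudin of the distal gut and kidney, had no reads in any library, which allows up to 0.169 to 0.232 CPM. CLDN18, the claudin of stomach and lung epithelium, had 3 reads in each organoid library and none in the tissues, so no difference was detectable at this depth. Of 9 gastric gene rows, none had more than 3 reads in the organoids, and 4 did in intestine. Reads beyond the annotated end of a transcript would not have been counted, and whether this touched CLDN1, CLDN8 or CLDN18 was not tested.

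Against muscle, 6 of the 8 members with at least 10 reads (CLDN2, CLDN3, CLDN4, CLDN7, CLDN15 and CLDN23) were past 2-fold upwards for each of the other libraries, and CLDN1 and CLDN5 were lower. Over all rows 57.1%, 56.5% and 57.9% were called higher in these comparisons, and 17.5% and 18.8% were lower in P5 and P10 organoids. The median of all rows was 2.47 times the muscle level in intestine, 2.47 times at P5 and 2.66 times at P10, and the ratios to muscle stand relative to that. CLDN4 was at least 792-fold higher in intestine than in muscle, 1764-fold in P5 organoids and 1094-fold in P10 organoids. CLDN7 and CLDN23 also had no muscle reads and were at least 16.6-fold and 14.8-fold higher in intestine. CLDN3 was the epithelial member best counted in muscle, where its 22 reads came to 1.06% of its intestine CPM. The 6 epithelial markers with at least 1000 reads in intestine had 0% to 5.98% of their intestine CPM in muscle, with a median of 1.21%. KRT18, VIL1, CDX2 and ELF3 had no muscle reads, and the part of such background in the muscle reads of CLDN3 was not tested.

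Another 12 claudin symbols stood on 13 rows, of which 4 had no read. The 10 members held 98.9% of all claudin reads in intestine and 99.5% in each organoid library, and 75.4% in muscle. The only other row with at least 50 reads was 1 of the rows of CLDN12, a claudin that helps calcium pass between cells. Its reads numbered 55 for intestine, 12 for muscle, 97 for P5 and 100 for P10 organoids. Its ratio to intestine was 2.31 at P5 (1.64 to 3.27) and 1.82 at P10 (1.30 to 2.58), below the 3.82 and 3.04 times of the summed epithelial list. KRT20, VIL1 and CDH17, however, had lower ratios than CLDN12 at P10. At P5 their ratios lay within its interval, as did that of EPCAM at both passages.

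The claudins were set beside 33 other tight junction genes, which encode the partner proteins of claudins in the membrane, the scaffold under it, and polarity factors. Of the 33, 10 lay 2-fold or more above intestine at P5 and 3 below, where 21.5% and 24.8% of all rows did. The 33 genes had a median log2 ratio of 0.70, against 1.64 for the claudins and 0.09 for all rows. Among the 32 of them with 50 reads or more in either library, the highest ratios were those of the polarity factor PARD6B at 9.15 (6.05 to 14.4), the adhesion protein EPCAM at 3.23 (3.13 to 3.33) and the junctional adhesion molecule F11R at 2.78 (2.60 to 2.98). EPCAM and F11R gained less than the 3.82 times of the epithelial list, to which EPCAM also belongs. The lowest were JAM3 at 0.00756 (1 read against 173), JAM2 at 0.475 (0.366 to 0.613), both adhesion molecules also found in endothelium, and the cingulin relative CGNL1 at 0.560 (0.407 to 0.763). The third gene past 2-fold downwards was ILDR2, at 0.482 (0.171 to 1.20) from 7 reads against 19.

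From P5 to P10, 3 of the 32 tight junction genes that reached 10 reads were 2-fold higher and 8 were 2-fold lower, with a median log2 ratio of -0.57. The claudins had a median of -0.73 and all rows 0.12. The lowest were AMOTL1, an angiomotin relative, at 0.0462 (0.0146 to 0.112), PARD6B at 0.139 (0.0929 to 0.202) and the scaffold protein MAGI3 at 0.318 (0.288 to 0.352). The highest were ILDR2 at 7.23 (3.32 to 18.7), CGNL1 at 6.19 (4.72 to 8.23) and LSR at 2.29 (2.0 to 2.63), of which ILDR2 and LSR belong to the angulins, which mark the corners where 3 cells meet. The third angulin, ILDR1, was at 0.647 (0.580 to 0.721). OCLN, which encodes occludin, had 25.6 CPM in intestine, 55.9 at P5 and 26.3 at P10, and TJP1, which encodes the scaffold ZO-1, had 30.8, 52.0 and 43.2 CPM. CLDN2 and CLDN15 thus lay above the median ratio of the other tight junction genes, and CLDN3, CLDN4, CLDN7 and CLDN23 below it.

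**Figure D4:**
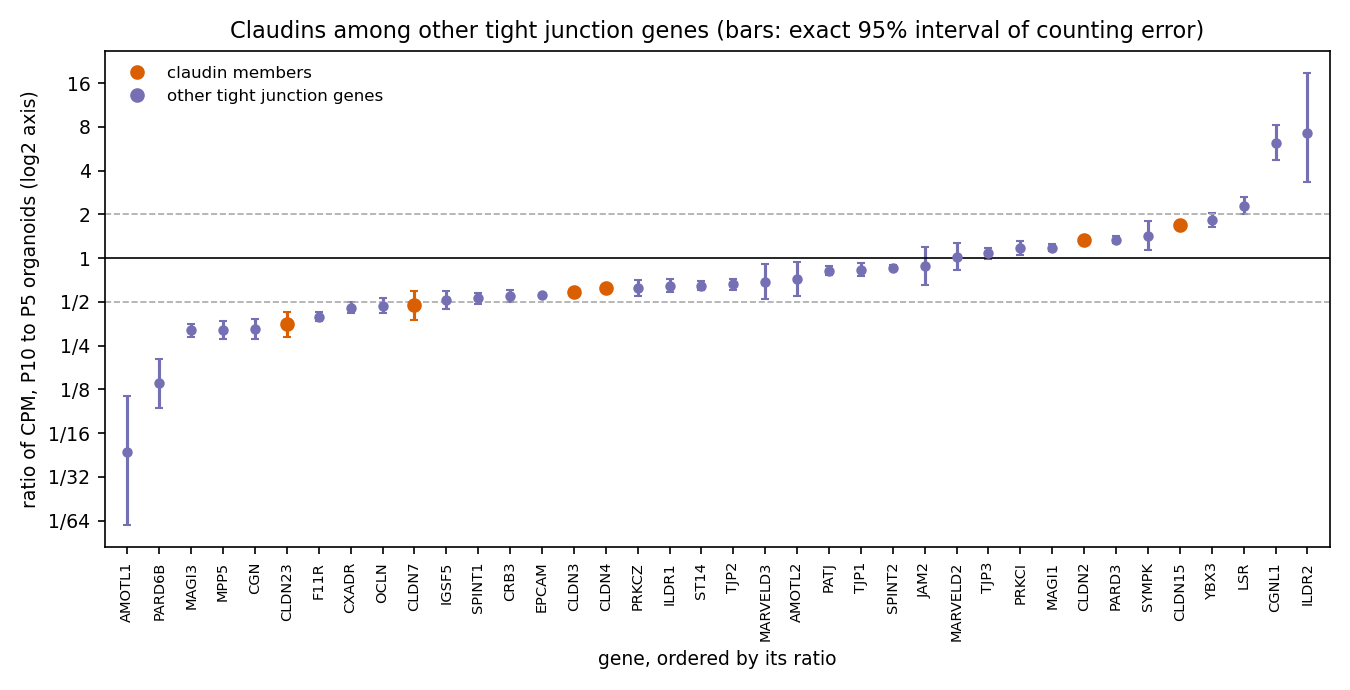
Ratio of CPM of P10 to P5 organoids for 6 claudins and the other tight junction genes that had 50 reads or more at either passage, ordered by ratio on a log2 axis, with exact 95% intervals of counting error. The ratios ran from 0.0462 for AMOTL1 to 7.23 for ILDR2, with CLDN23 at 0.350 and CLDN15 at 1.69.

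Likeness to other genes was measured as the Euclidean distance between log2(CPM + 0.5) values of the 4 libraries, centred per gene, over 15050 other rows that reached 50 reads somewhere. The nearest rows to CLDN2 were LGALS2, which encodes a galectin, at a distance of 0.73, GCNT3, which encodes a mucin-type glycosyltransferase, at 1.01, and KRT19, an epithelial keratin, at 1.07. LGALS2 stood at 3275 CPM at P10, 2077 at P5, 382 in intestine and 1.16 in muscle. The nearest rows to CLDN5 were ME3 (0.17), LOC112441493 (0.22) and BAG2 (0.26). CLDN5 had no organoid reads, so its organoid values in this measure were set by the added 0.5 CPM. BAG2 was not absent from the organoids, with 9.26 CPM at P5 and 8.52 at P10 against 42.1 in intestine and 112 in muscle. These distances rest on 4 libraries and describe them only.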

How the data were processed

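RNA of 4 bovine samples, 1 library for each group of the labels, was measured with the QuantSeq 3′ mRNA-Seq kit. Per the study's methods and the submitters' processing notes, alignment was by Bowtie2, against genome or transcript indices, and Bedtools took the coverage of genes, with reads that aligned more than once included. The authors deposited raw counts, as whole numbers of reads for each gene symbol. Build, annotation, versions and the strand setting are not given in the sources used here. The study methods name quantile normalisation with edgeR and do not say how tied counts were treated. It was run here with tied counts at the value of their mean rank. A single read then stood at 0.32 (log2) in intestine but 0.81 at P5 and 2.09 at P10 and in muscle. Ratios were therefore taken from counts per library total (CPM), and quantile normalisation, with log2(value + 1), was an alternative.

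A ratio was called at 2-fold, where the higher library had 10 reads or more, entering libraries under 3 reads at 3. The code was tested on simulated counts. Alternatives were TMM and upper-quartile factors (edgeR 4.0.16), DESeq2 1.42.0 size factors, library totals without RN18S1, no minimum or 50 reads, and rows summed by symbol. Reads of the epithelial list as denominator were added after seeing the data. The members and gene lists were chosen with earlier results of these data known. The genes named were all members, other claudins with at least 50 reads, the 3 highest and 3 lowest other tight junction genes in the comparisons of P5 organoids with intestine and of P10 with P5 organoids, and the 3 rows nearest to CLDN2 and to CLDN5. The same was planned for CLDN18, which had too few reads. OCLN and TJP1 were added for their role. Intervals came from scipy 1.17.1 in Python 3.11.15 (with pandas 2.3.3 and numpy 2.4.6), factors from R 4.3.3 and plots from matplotlib 3.10.9. Libraries held 12917720 to 17776273 reads. RT-PCR, staining and permeability data were not analysed here.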

Additional observations from a re-analysis of the deposited data

How the results depend on the processing

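Each of the 44 ratios of members kept its direction with TMM, upper-quartile, quantile and DESeq2 scaling, without RN18S1 and with rows summed by symbol. Their sizes were less stable. The counting interval of the CPM ratio was left by 24 of the 44 with TMM and 24 with DESeq2 factors. It was left by 25 with upper-quartile and 25 with quantile scaling, and by 10 without RN18S1. Per epithelial marker read, 8 ratios to intestine turned, at P5 those of CLDN3 (0.815), CLDN4 (0.584), CLDN7 (0.828) and CLDN15 (0.504), and at P10 those of CLDN3 (0.596), CLDN4 (0.454), CLDN7 (0.490) and CLDN23 (0.612). With that denominator the members at least 2-fold higher than intestine were 0 at P5 and 0 at P10, those lower were 1 at P5 and 3 at P10, against 76.9% and 63.4% of all rows, and P10 against P5 organoids had 1 higher and 1 lower. Quantile normalisation left 0 members lower in P10 organoids than in intestine and 3 higher in place of 2. Of all rows, 21.6% were then lower and 28.0% higher. The 5 members higher at P5 were 4 with TMM, DESeq2 and quantile scaling, where 18.4%, 18.4% and 24.9% of all rows were higher. A minimum of 50 reads left 0 members lower than intestine at P5 and 0 at P10, against 20.7% and 23.0% of all rows. It left 1 lower than muscle in each of intestine, P5 and P10 organoids, since CLDN1 and CLDN5 have few reads. Of all rows, 9.76%, 14.1% and 14.1% were lower than muscle there. Without RN18S1 in the total, claudins were 0.0561% of intestine, 0.00105% of muscle and 0.165% of P5 organoids. Of the rows called in intestine against muscle, 83.2% were higher by CPM, 59.7% with TMM, 54.3% with upper-quartile, 56.4% with DESeq2 and 49.7% with quantile scaling. For P5 organoids this share was 76.4% by CPM and 48.3% to 53.7% with these others, and for P10 organoids 75.4% and 47.7% to 54.3%. No paired analysis was possible because each group has 1 library, and no replicate could be left out. Depth limits statements on CLDN1, CLDN5, CLDN8 and CLDN18.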

Other observations

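Another 3 claudins with 10 to 49 reads in a library, chosen after their values were seen, were each counted mainly in 1 kind of sample. CLDN6, a claudin known from embryonic epithelium, had 25 reads in P10 organoids (1.41 CPM) and none in the other libraries. CLDN20 had 20 reads in intestine (1.13 CPM) and none elsewhere. CLDN19, known from kidney and peripheral nerve, had 22 reads in intestine, 4 in P5 organoids and none in P10 organoids or muscle. Each value rests on a single library and few reads.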
